A study of Mus musculus with 12 samples.

Results

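The 10 genes described here are members and partners of the PARP family grouped here as interferon-linked: Zc3hav1, Parp12, Tiparp, Parp11, Parp14, Parp9, Dtx3l, Parp10, Parp3 and Parp8. They were chosen by name, with earlier results of these data known. All were found by symbol and Ensembl identifier among the 38924 gene IDs of the count files, and all 10 passed the filter on low counts. The data are 12 RNA sequencing libraries of CD4+ T cells, 3 for each combination of genotype and treatment, and the comparisons ask how T cells respond to activation of STING, the adaptor of cytosolic DNA sensing. Naive T cells were sorted from spleens of C57BL/6 mice, either wild type (WT) or STINGgt/gt, the Goldenticket strain, which carries a missense mutation of the STING gene Tmem173 and is labelled STING KO. Before treatment the cells of all 4 groups had grown for 2 days on antibodies to CD3 and CD28, followed by 1 day of rest. They then received the solvent DMSO or 10-carboxymethyl-9-acridanone (CMA), a small molecule agonist of mouse STING, for 16 h. The methods give an age of 8 to 12 weeks and a single sex for the mice of all experiments. The study calls its RNA sequencing samples biological replicates but, like the labels, does not say whether they were separate mice or cultures, so p-values measure the spread between these libraries only.

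PARP enzymes transfer ADP-ribose from NAD+ onto proteins and nucleic acids. Parp1 and the tankyrases build chains, whereas most of the enzymes described here add single units or, as for Zc3hav1, none. Many of them are products of interferon-stimulated genes: STING activates the kinase TBK1 and the factor IRF3, type I interferon follows, and its receptor leads to the factor ISGF3, which binds interferon-stimulated response elements (ISRE) in promoters. Tiparp is also a classical target of the aryl hydrocarbon receptor, which binds xenobiotic response elements (XRE).

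Promoter windows of 300 bases, from 250 before to 50 after an annotated start, were available from RefSeq (GRCm38.p6) for 7 of the 10 genes. These were Zc3hav1, Parp12, Tiparp, Parp11, Dtx3l, Parp3 and Parp8, with 8 windows in all because Parp11 has a pair of starts. The letters searched on both strands were the ISRE core, which is a pair of GAAA blocks with 2 bases between them, TTCNNNGAA for the interferon gamma activated site (GAS) and GCGTG for the XRE core. The windows below are shown because Parp12 and Parp11 had the largest changes among the genes with a window, Dtx3l shares its start region with Parp9, and Tiparp had the smallest change. Capitals mark matches, in either orientation.
Parp11 (chr6:127446590-127446889, plus strand): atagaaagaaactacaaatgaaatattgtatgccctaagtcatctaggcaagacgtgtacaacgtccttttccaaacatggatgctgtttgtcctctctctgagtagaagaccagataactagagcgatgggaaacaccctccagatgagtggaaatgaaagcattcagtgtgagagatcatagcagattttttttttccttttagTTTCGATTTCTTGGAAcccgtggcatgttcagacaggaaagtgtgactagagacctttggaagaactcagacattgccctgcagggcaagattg
Parp12 (chr6:39118300-39118599, minus strand): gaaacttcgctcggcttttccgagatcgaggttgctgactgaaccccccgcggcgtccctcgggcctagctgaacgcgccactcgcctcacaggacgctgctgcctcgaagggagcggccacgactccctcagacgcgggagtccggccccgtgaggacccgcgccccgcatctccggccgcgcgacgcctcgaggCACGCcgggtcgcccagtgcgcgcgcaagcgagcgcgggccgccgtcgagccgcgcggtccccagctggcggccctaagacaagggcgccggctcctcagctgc
Dtx3l (chr16:35938978-35939277, minus strand): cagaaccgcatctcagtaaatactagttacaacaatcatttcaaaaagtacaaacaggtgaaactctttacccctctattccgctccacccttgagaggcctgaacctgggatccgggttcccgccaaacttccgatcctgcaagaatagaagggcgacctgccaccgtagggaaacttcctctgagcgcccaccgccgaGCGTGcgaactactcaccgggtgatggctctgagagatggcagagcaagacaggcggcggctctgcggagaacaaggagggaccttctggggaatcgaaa
Tiparp (chr3:65528197-65528496, plus strand): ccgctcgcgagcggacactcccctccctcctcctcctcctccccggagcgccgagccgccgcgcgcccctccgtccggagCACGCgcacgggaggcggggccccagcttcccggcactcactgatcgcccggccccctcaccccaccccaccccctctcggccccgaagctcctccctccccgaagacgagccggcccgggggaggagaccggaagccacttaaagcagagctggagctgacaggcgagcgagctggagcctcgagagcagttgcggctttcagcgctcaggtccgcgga
The ISRE core occurred in 1 of the 8 windows, that of the first Parp11 start, on the opposite strand at bases 207 to 216. A GAS match at bases 214 to 222 overlaps it. Among 32851 promoters of this length, 3.44% held the ISRE letters, 8.3% the GAS letters and 32.4% the XRE letters. The XRE core was found in the windows of Parp12, Dtx3l, Tiparp, Parp3, Parp8 and the second start of Parp11, and no match to any of these letters lay in that of Zc3hav1. A match describes the letters of a window and does not show that a factor binds there.

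The reads counted on genes numbered 27414450 to 43784910 in the 12 libraries. Levels are given as CPM, the counts relative to library size after scaling by the TMM method, and log2 fold changes come from edgeR's quasi-likelihood test, fitted on 13811 genes in all 4 groups, with Benjamini-Hochberg adjusted p-values. Tmem173 read 183 to 190 CPM in WT and 168 to 181 in STINGgt/gt T cells with DMSO (log2 difference 0.10, edgeR adjusted p = 0.0827), which does not check a missense genotype. T cell markers (Cd3e, Cd3d, Cd3g, Cd4, Cd5, Lck and Cd28) had a summed level of 2866 to 2918 CPM in WT with DMSO, 2634 to 2641 in WT with CMA, 2950 to 2992 in STINGgt/gt with DMSO and 2983 to 3054 in STINGgt/gt with CMA, with none at 0. With CMA in WT 4 of the 7 were called lower and 1 higher, where 37.4% of all genes were called lower and 33.0% higher. Markers of other cells were detected as well. The summed level of 6 B cell markers lay at 195.7 to 204.3 CPM in WT with DMSO, 282.4 to 302 in WT with CMA, 95.7 to 98.54 in STINGgt/gt with DMSO and 94.27 to 95.38 in STINGgt/gt with CMA. For 7 myeloid markers these ranges were 47.84 to 52.87, 61.33 to 65.99, 36.26 to 38.47 and 34.65 to 39.58, and for 6 CD8 and natural killer markers 120.9 to 137.4, 59.12 to 63.9, 56.13 to 59.39 and 59.6 to 63.17. The myeloid sum in WT followed Cst3 (38.6 and 55.7 CPM), the only one of 6 tested myeloid markers called higher, while Itgam (log2 fold change -1.71) and Lyz2 (-1.502) were called lower. None of these markers was at 0 in a whole group. Their part in the results below was not tested, and in such bulk samples fewer cells of a type cannot be told apart from less RNA per cell.

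CMA raised all 10 genes in WT T cells, and 10 of 10 passed the test, against a background of 33.0% of the 13811 genes called higher in this comparison. Because the 10 were chosen with earlier results of these data known, this contrast describes them and does not test them as a set. The 3 CMA libraries lay above the 3 DMSO libraries for every one of the 10, where 33.5% of all genes showed such a separation upwards. A called rise of at least 2-fold was seen for 9 of the 10 (9.32% of all genes) and of at least 4-fold for Parp12 and Parp14 (3.42%). The median log2 fold change over the 10 genes was 1.29, that of all genes tested -0.04. Summed over the 10 genes the level rose from 1018 ± 74.3 to 3151 ± 80.1 CPM (SD, n = 3), and in STINGgt/gt T cells it read 1084 ± 32.2 with DMSO and 1119 ± 21.3 with CMA.

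**Figure D1:**
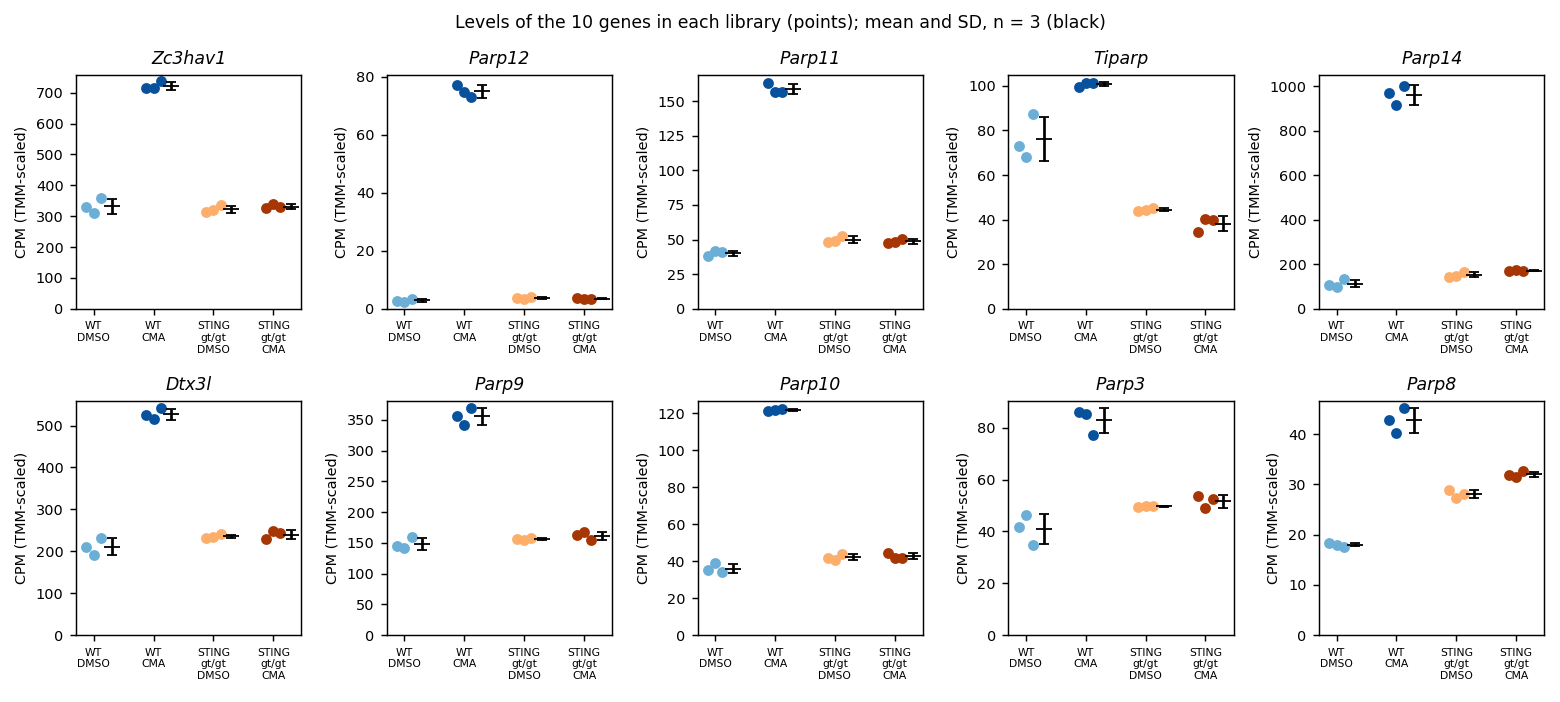
Levels of the 10 genes in each of the 12 libraries (points), on linear axes of TMM-scaled CPM that start at 0, with the group mean and SD (n = 3) in black. The WT libraries with CMA lie above all other libraries in all 10 panels, and only in the Tiparp panel do the WT libraries with DMSO also lie above both STINGgt/gt groups.

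The first set holds the CCCH zinc finger members and Parp11. Zc3hav1 (ENSMUSG00000029826, chromosome 6 of GRCm38, 38305286 to 38354603, minus strand) encodes ZAP, a protein without ADP-ribosyl transfer that binds CpG-rich viral RNA and directs its decay. Its levels in WT T cells were 329, 309 and 358 CPM with DMSO and 715, 717 and 738 CPM with CMA. The groups did not overlap, and the log2 fold change was 1.12 (standard error 0.05, edgeR adjusted p = 6e-12). STINGgt/gt libraries read 313.5, 319 and 336 CPM with DMSO and 325, 339 and 329 CPM with CMA, overlapping ranges, with a log2 fold change of 0.04 (95% interval -0.08 to 0.15, edgeR adjusted p = 0.818). With DMSO both genotypes overlapped as well, at a log2 difference of 0.04 (edgeR adjusted p = 0.55).

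Parp12 (ENSMUSG00000038507, chromosome 6, 39086410 to 39118349, minus strand), a mono-ADP-ribosyltransferase with the same kind of zinc fingers that inhibits alphavirus and other RNA virus replication, had the largest change of the 10. With DMSO the WT libraries held 75, 74 and 137 reads, or 2.73, 2.48 and 3.34 CPM. With CMA they held 2760, 2424 and 2312 reads, or 77, 74.8 and 72.9 CPM. All 3 CMA libraries lay far above the DMSO libraries. Its log2 fold change of 4.69 (standard error 0.08, 25.8-fold, edgeR adjusted p = 8.14e-17) ranked 97 among the 13811 genes. STINGgt/gt levels stayed between 3.26 and 4.08 CPM with DMSO and between 3.40 and 3.59 CPM with CMA, overlapping ranges, and the log2 fold change was -0.10 (95% interval -0.34 to 0.15, edgeR adjusted p = 0.765).

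Tiparp (ENSMUSG00000034640, chromosome 3, 65528410 to 65555145 in the deposited table, plus strand), also called PARP7, mono-ADP-ribosylates the aryl hydrocarbon receptor and dampens it, and restrains type I interferon signalling through TBK1. It had the smallest rise of the 10 in WT T cells. Levels were 72.9, 68.1 and 87.4 CPM with DMSO and 99.7, 101.3 and 101.4 CPM with CMA, so that replicate 3 with DMSO came closest to the CMA libraries. The log2 fold change was 0.40 (standard error 0.07, 1.32-fold, edgeR adjusted p = 0.000136). It was also the only one of the 10 whose STINGgt/gt libraries separated downwards. With DMSO these read 44.1, 44.3 and 45.1 CPM and with CMA 34.3, 40.4 and 39.6 CPM, all below the DMSO libraries. The log2 fold change there was -0.22 (95% interval -0.40 to -0.04) and did not pass (edgeR adjusted p = 0.216).

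Parp11 (ENSMUSG00000037997, chromosome 6, 127446840 to 127494241 in the deposited table, plus strand) is a mono-ADP-ribosyltransferase with a WWE domain, found at the nuclear envelope, and it modifies an E3 ligase that controls the interferon receptor Ifnar1. WT libraries read 38.3, 41.6 and 40.7 CPM with DMSO and 163, 156.7 and 156.8 CPM with CMA. The replicates of each group lay close together and far from the other group. The log2 fold change was 1.98 (standard error 0.05, 3.95-fold, edgeR adjusted p = 3.43e-15). Those of STINGgt/gt read 48.3, 48.7 and 52.6 CPM with DMSO and 47.5, 48 and 50.5 CPM with CMA, which overlap (log2 fold change -0.03, 95% interval -0.14 to 0.08, edgeR adjusted p = 0.827).

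The second set comes from 1 stretch of chromosome 16, where Parp14, Dtx3l and Parp9 lie within 139732 bases. Parp14 (ENSMUSG00000034422, 35832874 to 35871544, minus strand) has macrodomains that bind ADP-ribose and is known as a cofactor of STAT6. WT libraries read 108, 98.8 and 133 CPM with DMSO and 971, 914 and 1003 CPM with CMA. None of the CMA libraries came near the DMSO range. The log2 fold change of 3.09 (standard error 0.09, 8.496-fold, edgeR adjusted p = 1.75e-14) ranked 203 of 13811. STINGgt/gt libraries read 145, 147 and 165 CPM with DMSO and 169, 175 and 169 CPM with CMA. All 3 CMA libraries lay above the DMSO libraries, at a log2 fold change of 0.17 whose 95% interval, -0.02 to 0.35, includes 0 (edgeR adjusted p = 0.401).

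Dtx3l (ENSMUSG00000049502, 35926511 to 35939151, minus strand) encodes an E3 ubiquitin ligase that forms a complex with Parp9. WT libraries read 210.2, 191 and 232 CPM with DMSO and 525.5, 515 and 541 CPM with CMA, well separated, with a log2 fold change of 1.32 (standard error 0.06, edgeR adjusted p = 5.91e-12). STINGgt/gt libraries read 232, 234 and 240.1 CPM with DMSO and 228, 248 and 243 CPM with CMA, overlapping ranges (log2 fold change 0.03, 95% interval -0.11 to 0.16, edgeR adjusted p = 0.895).

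Parp9 (ENSMUSG00000022906, 35938470 to 35972605, plus strand), the macrodomain partner of Dtx3l in DNA damage and interferon responses, moved by nearly the same amount. WT libraries read 144, 141 and 159 CPM with DMSO and 357, 341 and 369 CPM with CMA. The groups did not overlap (log2 fold change 1.26, standard error 0.05, edgeR adjusted p = 1.46e-12). In the mutant cells they read 156, 155 and 157 CPM with DMSO and 163, 167 and 154.5 CPM with CMA (log2 fold change 0.05, 95% interval -0.06 to 0.17, edgeR adjusted p = 0.733).

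Dtx3l and Parp9 start head to head on opposite strands and overlap by 682 bases, 458 of them exonic in both, which is 9.4% of the exon bases of Parp9 and 8.0% of those of Dtx3l. The promoter window of Dtx3l shown above falls inside the bounds of Parp9. The libraries keep the strand, but the strand setting of the counting is not given in the sources used here, so reads of this overlap may be shared between both genes or set aside. Within libraries the ratio of Parp9 to Dtx3l reads was 0.704 ± 0.031 in WT with DMSO, 0.674 ± 0.010 in WT with CMA, 0.663 ± 0.0094 in STINGgt/gt with DMSO and 0.675 ± 0.039 in STINGgt/gt with CMA (SD, n = 3). The ratio of Parp14 to Dtx3l reads was 0.534 ± 0.032, 1.83 ± 0.043, 0.647 ± 0.034 and 0.714 ± 0.022 in the same order. Parp14 therefore rose against its neighbour with CMA in WT by 1.29 reads per Dtx3l read, with no overlap between the groups. In exact permutation tests (two-sided, 20 regroupings) p was 0.1 for this change and for the smaller change in the Parp9 ratio of -0.03, and 0.1 is the smallest p that 3 libraries a group can give. The Parp14 ratio also separated in STINGgt/gt T cells, where it was higher with CMA by 0.068 (ranges 0.625 to 0.687 and 0.698 to 0.740, exact permutation p = 0.1).

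**Figure D2:**
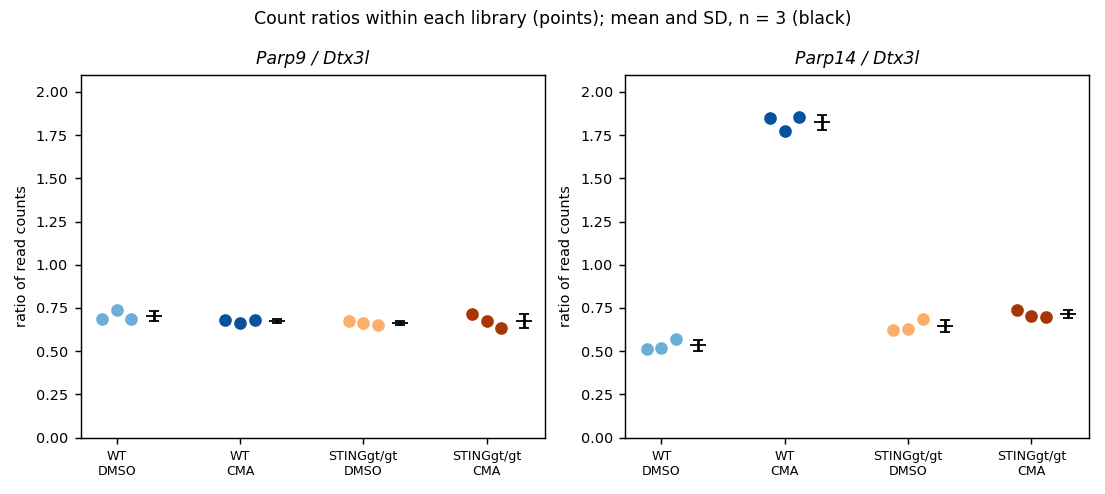
Ratio of read counts within each library (points) for Parp9 over Dtx3l and for Parp14 over Dtx3l, on a linear axis from 0, with mean and SD (n = 3) in black for each of the 4 groups. The Parp9 ratio stays between 0.637 and 0.740 in all libraries, whereas the Parp14 ratio reaches 1.83 ± 0.043 in WT with CMA.

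The third set holds the remaining transferases. Parp10 (ENSMUSG00000063268, chromosome 15, 76231174 to 76243441, minus strand) is a mono-ADP-ribosyltransferase that binds ubiquitin and Myc. WT libraries read 35.1, 38.9 and 34.0 CPM with DMSO and 121, 122 and 122 CPM with CMA. The spread after CMA was the smallest of the 10 relative to the mean, with an SD of 0.62 CPM (n = 3). CMA raised Parp10 by 1.76 on the log2 scale (standard error 0.05, 3.39-fold, edgeR adjusted p = 3.67e-14), and in STINGgt/gt T cells, at 41.8, 40.5 and 43.9 against 44.5, 41.6 and 41.6 CPM, it was 0.02 (95% interval -0.11 to 0.14, edgeR adjusted p = 0.933). Parp10 shares 205 exon bases, or 4.8% of its own, with Plec on the same strand, and Plec had a log2 fold change of 0.63 in WT (edgeR adjusted p = 1.149e-08), so reads there may be divided between them.

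Parp3 (ENSMUSG00000023249, chromosome 9, 106470322 to 106476949, minus strand) is a nuclear enzyme of DNA double-strand break repair. WT libraries read 41.6, 46.2 and 34.8 CPM with DMSO and 86.0, 85.4 and 77.2 CPM with CMA. Replicate 3 was the lowest library of both groups, and the groups did not overlap, with a log2 fold change of 1.03 (standard error 0.08, edgeR adjusted p = 4.48e-09). In the mutant cells the libraries read 49.6, 49.8 and 49.6 CPM with DMSO and 53.7, 48.9 and 52.5 CPM with CMA (log2 fold change 0.06, 95% interval -0.12 to 0.23, edgeR adjusted p = 0.809).

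Parp8 (ENSMUSG00000021725, chromosome 13, 116854824 to 117025516 in the deposited table, minus strand) is a mono-ADP-ribosyltransferase of the nuclear envelope and cytosol whose targets are little known. WT libraries read 18.24, 18.01 and 17.63 CPM with DMSO and 42.7, 40.2 and 45.3 CPM with CMA. With CMA every library was higher, at a log2 fold change of 1.25 (standard error 0.05, edgeR adjusted p = 3.01e-12). STINGgt/gt libraries read 29.0, 27.4 and 28.0 CPM with DMSO and 31.9, 31.5 and 32.6 CPM with CMA, also without overlap. The log2 fold change there was 0.19, with a 95% interval from 0.07 to 0.30, and it did not pass once adjusted over all genes (edgeR adjusted p = 0.0923).

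Without functional STING none of the 10 genes passed the test of CMA against DMSO, where 0.398% of all genes were called higher and 0.920% lower. These shares stand for 55 and 127 genes. Each STINGgt/gt library left out lowered both counts, to between 14 and 31 and between 41 and 72, while leaving out WT DMSO replicate 2 raised them to 180 and 276 and WT DMSO replicate 3 to 169 and 289. DESeq2 and limma-voom also called 0 of the 10. Of all genes DESeq2 called 123 higher and 200 lower, limma-voom 62 and 125, and edgeR with the replicate block 130 and 233. At an unadjusted p under 0.05 in edgeR there were 2 of the 10, Parp8 and Tiparp, where 1790 of the 13811 genes tested were. The libraries separated upwards for 2 genes (Parp8 and Parp14), where 11.8% of all genes did, and downwards for 1 (Tiparp), where 11.3% did. When edgeR was fitted on the STINGgt/gt libraries only, which changes the estimate of the spread, Parp8 (adjusted p = 0.0266) and Parp14 (adjusted p = 0.033) were called higher and Tiparp lower (adjusted p = 0.0125), at log2 fold changes of 0.18, 0.17 and -0.22. That fit called 268 genes higher and 388 lower of 13113. The effects were small, and the median log2 fold change over the 10 genes was 0.03.

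The difference of the CMA effects, WT minus STINGgt/gt, was positive for all 10 genes and passed for 10 of 10, against 27.2% of all genes. It was 4.79 on the log2 scale for Parp12 (edgeR adjusted p = 2.09e-13), 2.92 for Parp14 (4.46e-12) and 2.01 for Parp11 (7.54e-13). Tiparp had the smallest difference, 0.62 (edgeR adjusted p = 0.000109), made up of a rise in WT and a lower value in STINGgt/gt that did not pass on its own. The other 6 genes lay between 0.97 (Parp3) and 1.74 (Parp10).

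**Figure D3:**
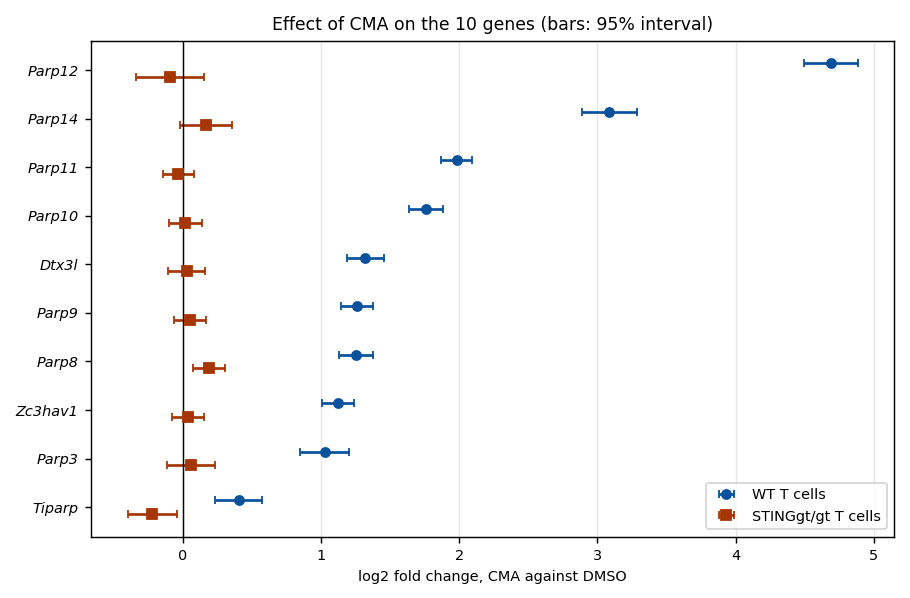
Log2 fold change of CMA against DMSO for each gene in WT (blue circles) and STINGgt/gt T cells (brown squares), with 95% intervals from edgeR's model of the 12 libraries. All 10 WT values lie right of 0, from 0.40 for Tiparp to 4.69 for Parp12, whereas the STINGgt/gt values lie between -0.22 and 0.19.

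With DMSO alone the genotypes already differed for most of the 10 genes. In WT, 7 genes were called lower than in STINGgt/gt (background 19.8% of all genes) and 1 was called higher (background 22.9%). The libraries separated for 5 genes downwards (22.6% of all genes did) and for 1 upwards (25.3%). Parp8 showed the largest gap downwards, with WT at 17.6 to 18.2 and STINGgt/gt at 27.4 to 29.0 CPM, a log2 difference of -0.65 (edgeR adjusted p = 7.62e-08). Among the genes whose libraries separated, Parp14 followed at -0.43 (edgeR adjusted p = 0.000517), then Parp11 at -0.31 (9.42e-05), Parp3 at -0.29 (0.00721) and Parp10 at -0.23 (0.00276). Parp12, at -0.36 (edgeR adjusted p = 0.0186), and Dtx3l, at -0.16 (edgeR adjusted p = 0.0404), were called although their libraries overlapped. Both calls were lost when only the DMSO libraries were fitted (edgeR adjusted p = 0.0757 and 0.0997) and when WT DMSO replicate 1 (0.0578 and 0.0891) or 2 (0.076 and 0.135) or STINGgt/gt DMSO replicate 1 (0.059 and 0.0619) or 3 (0.0745 and 0.109) was left out. That of Dtx3l was lost without WT CMA replicate 1 (0.0531) and without STINGgt/gt DMSO replicate 2 (0.0715) too. The log2 differences were -0.37 for Parp12 and -0.16 for Dtx3l when only the DMSO libraries were fitted. Without WT DMSO replicate 2 they were -0.27 and -0.094. Parp9, at a log2 difference of -0.07 (edgeR adjusted p = 0.264), was not called but became so without WT DMSO replicate 3 (log2 difference -0.13, edgeR adjusted p = 0.0228).

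Tiparp went the other way. Its WT libraries with DMSO, 68.1 to 87.4 CPM, lay above the STINGgt/gt libraries, 44.1 to 45.1 CPM, at a log2 difference of 0.78 (1.72-fold, edgeR adjusted p = 5.07e-07). The B cell, myeloid and CD8 and natural killer markers were also higher in WT with DMSO: 6 of 6, 6 of 6 tested and 5 of 6 of these lists were called, where 22.9% of all genes were. The myeloid count was 3 with at least 10 counts required in every library and 4 with limma on the deposited log2 table or at an adjusted p under 0.01. Genes that an alternative does not test count as not called. Csf1r and Cd14, at 0.0698 and 0.0716 CPM in STINGgt/gt with DMSO, had fewer than 10 counts there and were left out by that filter. The genotype is confounded with whatever else differed between the cell preparations, which cannot be told apart here.

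With CMA all 10 genes were higher in WT than in STINGgt/gt T cells, against 37.0% of all genes, and no groups overlapped (39.7% of all genes separated this way). Parp8, whose starting level was lower in WT, had the smallest log2 difference, 0.42 (edgeR adjusted p = 1.02e-06), and Parp3 had 0.68 (edgeR adjusted p = 4.06e-07). At 1.40 the difference for Tiparp (edgeR adjusted p = 5.18e-11) was made up of its higher level with DMSO, its rise in WT and its lower value with CMA in STINGgt/gt. This comparison uses the same libraries as those above.

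**Figure D4:**
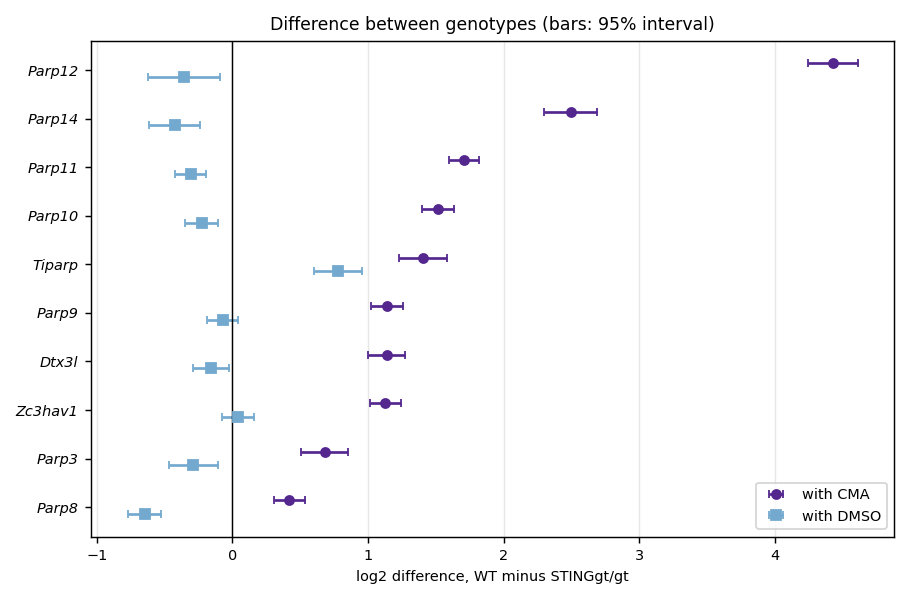
Log2 difference of WT minus STINGgt/gt T cells with DMSO (light blue squares) and with CMA (purple circles) for each gene, with 95% intervals from edgeR. With DMSO the values run from -0.65 (Parp8) to 0.78 (Tiparp), and with CMA all 10 lie right of 0.

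Divided by the length of all annotated exons, the levels can be ordered between genes. In WT T cells with DMSO the order in CPM per kb of exon was Zc3hav1 (50.9), Dtx3l (36.9), Parp9 (30.4), Tiparp (17.5), Parp14 (12.2), Parp3 (11.1), Parp10 (8.42), Parp11 (5.72), Parp8 (2.02) and Parp12 (0.714). Only the ranges of the neighbours Parp14 and Parp3 overlapped over the 3 libraries. After CMA in WT, Parp14 (103 CPM per kb) stood next to Zc3hav1 (111), ahead of Dtx3l (92.1) and Parp9 (73.0). Parp10 (28.5 CPM per kb) came next, and Tiparp (23.1), Parp11 (22.6) and Parp3 (22.4) had overlapping ranges. Parp12 (18.7) and Parp8 (4.81) closed the order. The 4 highest per kb in STINGgt/gt T cells were Zc3hav1, Dtx3l, Parp9 and Parp14 with either treatment. With the length of the longest transcript in place of all exons, Parp11 (42.4 CPM per kb) passed Parp10 (35.7) in WT with CMA, while Parp9 (100.2) and Dtx3l (99.3) overlapped. Parp3 (26.1 to 29.0) then lay above Tiparp (23.8 to 24.2), which overlapped Parp12 (22.6 to 23.8). In WT with DMSO this length gave overlapping ranges for Parp9 (41.8) and Dtx3l (39.8), for Tiparp (18.2) and Parp14 (15.3), for Parp14 and Parp3 (13.8) and for Parp11 (10.7) and Parp10 (10.6).

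**Figure D5:**
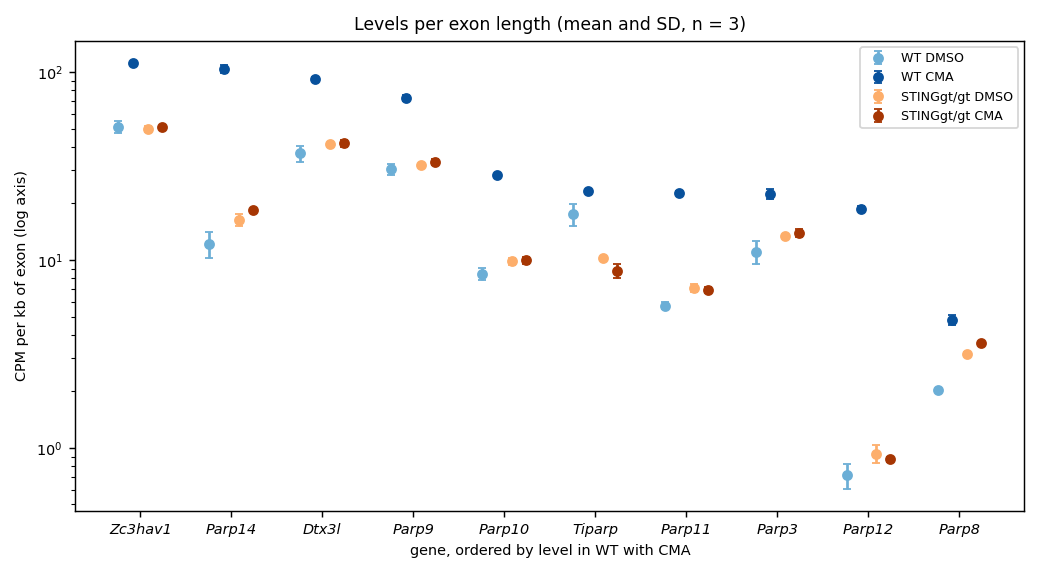
Mean level and SD (n = 3) of each gene in the 4 groups in CPM per kb of exon on a log axis, with genes ordered by WT with CMA. Parp12 and Parp14 show the widest gap between WT with CMA and the other groups, and Parp12 lies lowest in the other 3 groups.

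Over the 12 libraries the log2 CPM of Parp9 and Dtx3l had a Pearson r of 0.995 and those of Parp14 and Dtx3l 0.997. Tiparp correlated with the others at 0.105 (Parp8) to 0.768 (Zc3hav1). These values describe libraries that fall into 4 groups, so most of each r reflects the group means. Among 11189 genes with a mean count of at least 50, the pattern most like that of Parp11 was Mx2 (r = 0.9989), followed by Mx1 and Irf7. Parp12 was most like Gpr157 (0.9985) and Trim25 (0.9984), Parp10 most like Trim26 and Ifi35 (both 0.9989), Parp14 most like D17H6S56E-5 (0.9987) and Zc3hav1 most like Plxnc1 (0.9982). The closest to Dtx3l was Usp47 (0.998), to Parp9 Armc8 (0.9983), to Parp3 Phlda3 (0.9908) and to Parp8 Arhgef3 (0.9941). Tiparp was most like Ero1lb (0.9945), Mcl1 (0.9917) and Man1a (0.9901). Between 97 (for Parp8) and 860 (for Zc3hav1) genes had an r over 0.95.

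Neighbours were the nearest genes on either side that passed the filter on low counts, up to 1764634 bases away (Pelo, beside Parp8). Of the 16 that are not among the 10, 5 were called higher with CMA in WT, 8 lower and 3 neither. Over all genes 33.0% were called higher and 37.4% lower. The antisense gene 4930599N23Rik starts 124 bases from Parp12 on the other strand. It had 0, 1 and 1 reads in WT with DMSO, 29, 24 and 24 with CMA, and at most 2 in any STINGgt/gt library. Only WT with CMA carried it past the filter on low counts. Its call, 1 of the 5 higher, was therefore favoured by that filter. Zc3hav1l, 6027 bases from Zc3hav1, had a log2 fold change of -0.20 in WT (edgeR adjusted p = 0.02776), and Hspbap1, beside Parp14, one of -0.35 (1.914e-05). Grina, beside Parp10, had one of 0.87 (4.047e-07), whereas those of Rrp9, which overlaps Parp3 by 20 exon bases on the opposite strand, and of Cracr2a, beside Parp11, were -1.02 (7.779e-10) and -1.30 (9.118e-07). The pseudogene 4931440P22Rik shares 223 exon bases with Tiparp on the opposite strand and had a log2 fold change of 1.01 (edgeR adjusted p = 0.001147), so reads of the shared bases may be assigned to either.

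Of the 7 others measured, 3 were called higher and 3 lower with CMA in WT (median log2 fold change -0.03), where 33.0% of all genes were called higher and 37.4% lower, so the counts lie near the background. The lower count was 2 in 15 of 21 alternatives besides the 2-fold minimum. Parp16, an enzyme of the endoplasmic reticulum membrane, fell from 34.4 ± 2.94 to 12.2 ± 0.067 CPM (SD, n = 3; log2 fold change -1.49, edgeR adjusted p = 5.78e-12). It was the only one of the 7 called in STINGgt/gt T cells, also lower, where 0.398% of all genes were called higher and 0.920% lower. Its level there went from 26.3 ± 0.333 to 21.2 ± 1.14 CPM (log2 fold change -0.31, edgeR adjusted p = 0.0214). The call was lost in 7 of 21 alternatives besides the 2-fold minimum. Parp1, the main source of ADP-ribose chains after DNA damage, had 256 ± 12.9 and 188 ± 2.43 CPM in WT (log2 fold change -0.44, edgeR adjusted p = 8.21e-08), and Parp4, the vault PARP, rose by 0.26 on the log2 scale (edgeR adjusted p = 0.000436). With DMSO 1 of the 7 was called higher and 2 lower in WT than in STINGgt/gt T cells, near the 22.9% and 19.8% of all genes.

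Among the 7 partners of ZAP and their kin, 3 were called higher and 4 lower with CMA in WT (33.0% and 37.4% of all genes), and 0 in STINGgt/gt, where 0.398% of all genes were called higher and 0.920% lower. The lower count was 2 or 3 in 11 of 21 alternatives, DESeq2 and the deposited log2 table among those with 2. Trim25, the E3 ligase that ZAP needs for its antiviral activity, rose from 147 ± 6.93 to 552 ± 2.99 CPM (log2 fold change 1.91, edgeR adjusted p = 3.33e-15). N4bp1, an antiviral endoribonuclease, rose by 0.74 on the log2 scale (edgeR adjusted p = 2.83e-09), and the helicase Dhx36 changed by -0.40 (edgeR adjusted p = 2.54e-06).

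Beside the 10 genes, all 27 genes of a list of interferon-stimulated genes were called higher with CMA in WT, where 33.0% of all genes were. The list was chosen with earlier results of these data known. Its log2 fold changes ran from 1.15 to 7.60, with a median of 4.02. Oasl1 (7.60), Oasl2 (7.40) and Rsad2 (7.37), which encode antiviral proteins, had the smallest p. Without functional STING 2 of the 27 were called higher and 1 lower (0.398% and 0.920% of all genes). The higher count was 0 or 1 without any single STINGgt/gt library other than CMA replicate 1, and the lower count was 0 without STINGgt/gt DMSO replicate 3 or CMA replicate 2 or 3. Over 21 alternatives these counts ran from 0 to 3 and from 0 to 2. With DMSO 6 were higher and 10 lower in WT than in STINGgt/gt (22.9% and 19.8% of all genes), with a median of -0.08. Of the 12 genes of the interferon signal chain, from ligand to receptors, kinases and regulators, 7 were called higher and 3 lower with CMA in WT (33.0% and 37.4% of all genes). The receptor chain Ifnar1 rose by 0.98 on the log2 scale (edgeR adjusted p = 8.974e-12), the kinase Tyk2 by 1.11 (9.422e-12) and the factor Irf1 by 0.97 (1.203e-11). Without functional STING 1 of the 12 was called higher and 2 lower, where 0.398% and 0.920% of all genes were. The lower count was 1 without WT CMA replicate 1 or 2 or STINGgt/gt CMA replicate 3. It was 0 without any other single STINGgt/gt library and at an adjusted p under 0.01.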

How the data were processed

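For each library the authors deposited a file of unnormalized read counts by Ensembl gene. A second deposited file holds log2 expression for 11921 genes, whose values are the log2 of count plus 0.5 with 1 offset per library. The submitters' processing notes list cutadapt 1.3, STAR 2.4.0f1, HTSeq 0.6.1, RSEM 1.2.16 and GRCm38, and the strand setting of the counting is not given in the sources used here. Tally lines that name no gene (alignments that were not unique, 27.8% to 30.3% of entries, no feature, 4.86% to 7.16%, ambiguous, 0.594% to 0.635%) stayed out of library sizes and tests.

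Counts were tested with edgeR 4.0.16 (R 4.3.3; glmQLFit and glmQLFTest, TMM, filterByExpr, no block, 4 groups in 1 model, threshold 0.05 on the Benjamini-Hochberg adjusted p over 13811 genes). Intervals are 95% from the model's standard error with 8 degrees of freedom. On simulated counts of the comparison of CMA with DMSO in WT, with 13811 genes, edgeR recovered 85 of 100 genes changed by 0.5 and 99 of 100 changed by 1 on the log2 scale, and called 8 unchanged genes. Only 200 genes were changed, as many up as down, each with a mean count of at least 50. In the data 33.0% of genes were called higher and 37.4% lower. The simulation therefore does not cover changes this broad or changed genes with fewer counts.

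The 10 genes and all lists (other PARPs, ADP-ribose removal and binding, NAD supply and use, ZAP partners, aryl hydrocarbon receptor and targets, interferon-stimulated genes, interferon signal chain, cell type markers) were chosen with earlier results of these data known. All 10 were described, and from each list at most the 3 genes with the smallest p in WT. Positions are those of the deposited table on GRCm38, and exon lengths, overlaps and neighbours come from GENCODE M21. Replicates differed by more than sampling noise, most in WT with DMSO (chi-square per degree of freedom 9.341 to 27.74, against 2.517 to 6.391 in the other groups). Alternatives were library-size scaling, DESeq2 1.42.0, limma-voom (limma 3.58.1), limma on the deposited log2 table, other filters and thresholds, only the groups compared, replicate blocks and leaving out each library.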

Additional observations from a re-analysis of the deposited data

Results flagged for a closer look

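CMA acted differently in the 2 genotypes on all 10 genes, by edgeR's test of the difference itself. On the log2 scale, WT minus STINGgt/gt, the difference was 0.97 for Parp3, 1.07 for Parp8, 1.21 for Parp9, 1.74 for Parp10 and 2.01 for Parp11. It was 4.79 for Parp12, 2.92 for Parp14, 1.29 for Dtx3l, 0.62 for Tiparp and 1.09 for Zc3hav1. The edgeR adjusted p-values ran from 2.09e-13 for Parp12 to 0.000109 for Tiparp. A test of a single distant library was not run.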

How the results depend on the processing

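Of 1090 fold changes recomputed for the 10 genes under the alternatives, 1050 kept their direction and their side of the threshold, 27 lost the call, 8 gained one and 5 changed sign. The changes of sign were all of values near 0 that were not called. In STINGgt/gt T cells the CMA effect on Parp10 ranged from -0.0191 to 0.0449 as single libraries were left out, below 0 without STINGgt/gt DMSO replicate 2 or CMA replicate 1. That on Parp11 ranged from -0.0614 to 0.0045, above 0 without STINGgt/gt DMSO replicate 3, and that on Dtx3l from -0.0014 to 0.0572, below 0 without STINGgt/gt CMA replicate 2. The log2 difference of Zc3hav1 between genotypes with DMSO ranged from -0.0227 to 0.0837, below 0 without WT DMSO replicate 3. With CMA in STINGgt/gt T cells 1 gene, Tiparp, was called lower without the filter on low counts (edgeR adjusted p = 0.0311), and 2 were called higher and 1 lower when only these groups were fitted. Leaving out single libraries gave 0 to 1 higher and 0 to 1 lower there. Parp8 was called without WT DMSO replicate 2 (edgeR adjusted p = 0.0463) or 3 (0.0428), and Tiparp without WT DMSO replicate 3 (0.0228), although these libraries are not part of that comparison. With a 2-fold minimum 0 genes were higher and 0 lower between genotypes with DMSO. The number called lower there ran from 5 to 8 as single libraries were left out. The counts of 10 in WT with CMA, in the difference of effects and between genotypes with CMA held under every alternative run except the 2-fold minimum and, for the difference, fitting only 2 groups, which cannot give it. The replicate block left 10 higher in WT with CMA, 0 in STINGgt/gt, and 1 higher and 7 lower between genotypes with DMSO. In their deviations from the group means, same-numbered DMSO and CMA libraries of WT correlated at 0.00195, 0.104 and 0.132. Those of STINGgt/gt correlated at 0.0634, 0.0597 and 0.0585. Differently numbered libraries lay between -0.15 and 0.056 in WT and between -0.061 and 0.00346 in STINGgt/gt. The main test used no pairs, and whether same-numbered libraries were paired is not settled here. The deposited sample names share a first digit within 5 of the 6 same-numbered pairs. What the digit stands for is not given in the sources used here. The causes of these changes were not tested. The number of libraries, 3 a group, limits what can be told apart. With library-size scaling the median log2 fold change of all genes with CMA in WT was -0.06.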

Other observations

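The genes that supply NAD+, the substrate of PARPs, and those that remove or bind ADP-ribose had members called in both directions with CMA in WT T cells. Of 13 tested genes of NAD supply and use, 5 were called higher and 7 lower (median log2 fold change -0.21), where 33.0% and 37.4% of all genes were. Nadk, the kinase that makes NADP, went from 125 ± 1.63 to 85.0 ± 1.49 CPM (SD, n = 3, log2 fold change -0.55, edgeR adjusted p = 4.49e-09). Sirt1, an NAD-dependent deacetylase, went from 25.9 ± 2.09 to 46.8 ± 2.24 CPM (0.85, edgeR adjusted p = 6.18e-09). Nmrk1, a nicotinamide riboside kinase, had a log2 fold change of 0.76 (edgeR adjusted p = 1.54e-07). Of 9 tested genes of ADP-ribose removal and binding, 3 were called higher and 4 lower (median -0.10), shares near those of all genes, among them Chd1l, an ADP-ribose-binding chromatin remodeller, at 53.1 ± 1.03 and 30.6 ± 0.649 CPM (log2 fold change -0.79, edgeR adjusted p = 4.5e-11). In STINGgt/gt T cells 0 genes of either list were called with edgeR, against 0.398% of all genes called higher and 0.920% lower.

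The aryl hydrocarbon receptor list is given because Tiparp is a known target, and a part of the receptor in the change of Tiparp was not tested. Only 3 of its 9 genes passed the filter, and with CMA in WT 1 was called higher (Nqo1, 0.357 and 0.690 CPM, log2 fold change 0.95) and 2 lower, where 33.0% and 37.4% of all genes were. Nqo1 was not among the genes called with limma on the deposited log2 table, which holds fewer genes and may lack it. At 0.194 CPM in STINGgt/gt with CMA it had too few reads for the filter of at least 10 counts in every library. It was not tested under that filter. Ahr itself went from 8.36 ± 2.20 to 3.35 ± 0.147 CPM in WT (log2 fold change -1.34, edgeR adjusted p = 2.05e-06). With DMSO Ahr was higher in WT than in STINGgt/gt T cells, at 8.36 ± 2.20 against 1.52 ± 0.297 CPM (log2 difference 2.48, edgeR adjusted p = 2.28e-08). The classical targets Cyp1a1 and Ahrr had at most 4 reads in any library and Cyp1b1 at most 1, too few for a test.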
